A study of Homo sapiens with 4 samples.

Results

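The S-phase tumour cells described here were 391 of 4348 human cells recovered from lesions of MCF10DCIS.com, a human basal-like breast cell line that forms ductal carcinoma in situ in mice. They were chosen by their own counts: human cells in the top 10% for the share of transcripts on the mitotic genes CENPF, CCNB1, TOP2A and UBE2C were set aside, and the top 10% of the others for the share on MCM3, MCM5, MCM6 and PCNA, over both pools, were kept. The reference throughout is the remaining 3957 human cells, mitotic cells included. A human cell was a barcode with at least 90% of its gene transcripts on human genes, at least 2000 gene transcripts and at most 20% of human transcripts on mitochondrial genes, and such cells were 4348 of 34722 deposited barcodes.

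The cells had been seeded on decellularised mammary extracellular matrix (dECM) of aged mice (18 months or older) or of young mice (2 to 3 months), kept in culture for 12 days and implanted into the right or left mammary fat pad of Rag1-/- mice, a strain without mature lymphocytes of the B and T lineages. Lesions with the stroma beside them were collected after 4 weeks, dead cells were removed, and cells were labelled with human hashing antibodies before droplet sequencing of transcript 3' ends. Aged and young implants shared a recipient, on opposite sides; all recipients carried the Rag1 deletion, and the age is that of the matrix donor. There was 1 gene expression library per group, the aged pool and the young pool, from 1 cell line, and the labels tie no hashing tag to an animal. Each comparison below therefore has no replicate check and no test, ratios carry 95% intervals for counting error only, and the pools are given side by side.

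Cells copy their genome once per cycle, in S phase. Before it, the origin recognition complex, CDC6 and CDT1 load the ring-shaped MCM helicase onto origins. CDC45 and the GINS complex switch the ring on, PCNA clamps the polymerases to the template, and histone chaperones pack the new DNA. Many of the genes involved are switched on together by E2F transcription factors at the border of G1 and S phase, while the mitotic genes follow later through the CHR promoter element. In ductal carcinoma in situ the share of cycling cells is read in the clinic through the Ki-67 protein, which does not separate S phase from the other cycling phases.

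The S-phase cells were 188 of 2138 human cells in the aged pool (8.79%, exact binomial interval 7.63 to 10.1) and 203 of 2210 in the young pool (9.19%, 8.01 to 10.5). The rule fixes the share over both pools, here 8.99%. These shares therefore compare the pools and do not measure the fraction of cells in S phase. The ratio of the shares, aged over young, was 0.957 (0.781 to 1.17), so the difference was within counting error. It turned to 1.24 when only the top 5% were kept, with 5.0047% in the aged and 4.03% in the young pool, and was 0.735 among cells with 1 clear hashing tag. Sets of at least 30 human cells that shared 1 tag differed more than the pools did. In the aged pool these shares were 6.90%, 9.09%, 11.9%, 14.3% and 14.3%, and in the young pool 6.85%, 10.0%, 11.5% and 13.7%, with 8.84% and 7.97% of the untagged cells. Their intervals are wide, such as 5.43 to 28.5% for 6 of 42 cells. No barcode of an S-phase cell occurred in both pools, and 3 human barcodes did.

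S-phase cells were also the deeper cells. Their median was 45568 and 46779 human transcripts (unique molecular identifiers, UMIs) in the aged and young pools, against 30560 and 30535 in the remaining cells. The share of cells chosen was larger among deeper cells, being 3.24% and 3.77% (aged, young) below 20000 gene UMIs, 8.51% and 8.54% at 20000 to 50000, and 14.7% and 15.2% above. Thinned to 10000 human UMIs each, S-phase cells showed a median of 3056 and 2988 genes, against 2782 and 2773 genes in the remaining cells. That thinning left out 9 and 11 S-phase cells and 221 and 207 remaining cells, and without it the medians were 6585 and 6615 genes in S-phase cells, against 5021 and 5029 in the remaining cells. Mitochondrial transcripts made up a median of 5.01% and 5.13% in S-phase cells, against 3.94% and 3.95% in the remaining cells. Scores over 0.25 from the doublet caller Scrublet were given to 3.19% and 6.404% of S-phase cells, against 6.87% and 6.48% of the remaining cells. The part that depth plays in the differences below was not tested over all genes. List by list it is given within depth ranges further on.

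The values that chose the cells are a description only. PCNA, the sliding clamp, had 241 CPM in S-phase cells against 34.9 CPM in the remaining cells of the aged pool, and 251 against 35.3 CPM in the young pool. MCM3, MCM5 and MCM6, subunits of the helicase ring, had 139, 85.4 and 98.6 CPM in S-phase cells of the aged pool, against 19.4, 11.2 and 11.8 CPM in the remaining cells. CPM here is counts per 1000000 human UMIs summed over the cells of a set. A median S-phase cell carried 28.5 (aged) or 26 (young) UMIs on the 4 genes, and a median remaining cell carried 1. The border was narrow: the 20 cells just inside it held 3.24 to 3.37 UMIs per 10000 on the 4 genes, and the 20 just outside 3.11 to 3.24. In 19 of the 391 cells the choice rested on fewer than 5 UMIs. When each gene was left out of the choice in turn, 341 to 367 of the 391 cells were kept, and the omitted gene was still 6.07-fold to 7.55-fold higher in the aged and 5.35-fold to 6.66-fold higher in the young pool.

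Genes that the choice did not use were high in most of the single cells as well. Over 40 genes of origin licensing, fork assembly and nucleotide supply, S-phase cells had a median of 28.5 UMIs per 10000 in the aged and 28.2 in the young pool, against 5.87 and 5.96 in the remaining cells. Cells of the mitotic set lay between, at 17.8 in each pool. In the aged pool 170 of 188 S-phase cells (90.4%) and in the young pool 172 of 203 (84.7%) were above the level that 90% of the remaining cells stayed under. Thinned to 10000 UMIs per cell, these were 86.6% and 76.0%, with medians of 28 and 27.5 UMIs, against 6 and 6 in the remaining cells. Choosing the top 10% by these 40 genes instead returned 304 of the 391 cells.

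**Figure D1:**
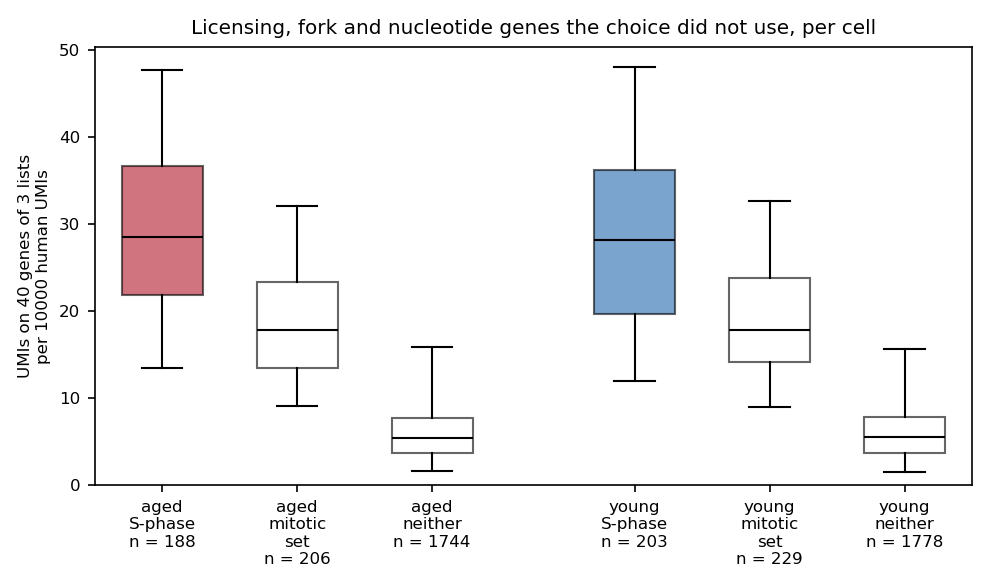
UMIs per 10000 human UMIs on 40 licensing, fork and nucleotide genes in single cells of the aged pool (left) and the young pool (right), for S-phase cells (filled), the mitotic set, and cells in neither. Boxes span the quartiles around the median and whiskers the 5th to 95th percentile of cells, and the S-phase medians of 28.5 and 28.2 lie above the mitotic medians of 17.8.

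As to cell type, the basal keratin KRT5 had 1343 and 1211 CPM in S-phase cells (aged, young), against 680.0 and 694 CPM in the remaining cells. The basal identity list as a whole did not follow it. Of its 15 measured genes 2 were higher and 7 lower in S-phase cells, as given further on. None of 12 markers of human blood, endothelial or stromal cells was measured in them by the rule below. PTPRC, CD3D, CD3E, MS4A1, COL3A1 and DCN had 0 UMIs, and the 12 summed to 16.5 and 11.6 CPM in S-phase cells (aged, young), against 15.2 and 14.1 CPM in the remaining cells. Of host RNA, 8 mouse neutrophil markers took 10.3 and 15.4 of 10000 UMIs in S-phase cells (aged, young), against 11.4 and 14.3 in the remaining cells. Mouse fibroblast markers took 0.994 and 0.175 in S-phase cells (aged, young), against 0.603 and 0.239 in the remaining cells. Mouse macrophage and monocyte markers took 0.285 and 0.837 in S-phase cells, against 0.431 and 0.501 in the remaining cells. Of 38 antibodies other than hashing tags, 13 and 11 counts in all fell on the S-phase cells, so surface proteins gave no readout.

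Across the transcriptome, S-phase cells were higher in replication genes and lower in genes of the invasion and hypoxia lists. A gene counted as measured when the set with more of it reached 20 CPM in each pool and its UMIs came to 100 or more, and it stood apart when it differed 1.5-fold or more in the same direction in both pools. Of 5717 measured genes other than those used for the choice, 542 (9.48%) were higher and 281 (4.92%) lower in S-phase cells. In single pools 1164 (aged) and 919 (young) genes were past 1.5-fold, 823 of them in both, and none in opposite directions. The balance of the 2 directions depends on the scale. With TMM factors 398 were higher and 424 lower, and with median-of-ratios factors 428 and 365. The median log2 ratio of all measured genes was 0.10 in the aged and 0.06 in the young pool, and -0.03 in each with TMM.

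By the smaller of the 2 pool ratios, the order used here, the highest gene was FAM111B, a trypsin-like protease related to the replication factor FAM111A, with 123 CPM in S-phase cells against 8.01 CPM in the remaining cells of the aged pool, and 110.2 against 8.35 CPM in the young pool. The ratios were 15.4-fold (13.9 to 16.9) and 13.2-fold (12.0 to 14.5). CCNE2, the cyclin E that drives entry into S phase, had 26.9 and 25.1 CPM in S-phase cells (aged, young), against 2.02 and 2.01 CPM in the remaining cells. DTL, the adaptor that sends CDT1 for degradation on PCNA-loaded DNA, had 49.6 and 44.0 CPM in S-phase cells (aged, young), against 3.20 and 3.53 CPM in the remaining cells. These 3 genes were all more than 12-fold higher in each pool, and in the mitotic set they stood at 16.4 and 17.3 CPM (FAM111B), 2.91 and 2.09 CPM (CCNE2) and 6.35 and 7.60 CPM (DTL). Others of the 12 highest were MCM10, E2F1, EXO1, CDC6, CLSPN, CDC45 and GINS2, which appear below by role, and the WD-repeat gene WDR76, with 39.7 and 43.2 CPM in S-phase cells (aged, young), against 5.97 and 5.91 CPM in the remaining cells.

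The 6 lists that follow the steps of replication held 78 genes, of which 56 were measured. Of these, 53 were higher in S-phase cells, beside 9.48% of all genes, 1 was lower, and TOPBP1 and IMPDH2 stayed within 1.5-fold. The list genes not measured were below the minimum. A gene near the minimum is measured through the set where it is high, so these counts and the medians below describe measured genes only.

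Origin licensing had 8 of 13 genes measured, all 8 higher, with a median log2 ratio of 2.33 in the aged and 2.25 in the young pool. CDC6, which helps load the MCM ring, had 52.2 CPM in S-phase cells against 4.17 CPM in the remaining cells of the aged pool, and 47.5 against 4.86 CPM in the young pool, or 12.5-fold (10.9 to 14.4) and 9.77-fold (8.54 to 11.2). MCM2, a ring subunit that was not used for the choice, had 67.1 and 56.1 CPM in S-phase cells (aged, young), against 9.64 and 10.1 CPM in the remaining cells. CDT1, the loader that is destroyed once S phase begins, had 42.7 and 42.8 CPM in S-phase cells (aged, young), against 9.72 and 9.57 CPM in the remaining cells. Its inhibitor geminin (GMNN) had 75.4 (aged) and 75.2 (young) CPM in S-phase cells, against 15.9 and 17.3 CPM in the rest. The origin recognition subunit ORC6 stood at 68.8 (aged) and 70.3 (young) CPM in S-phase cells, against 12.9 and 13.9 CPM in the rest. Licensing factors and their inhibitor were high in the same set of cells. MCMBP, an MCM-binding protein, had the smallest ratio of the 8, with 48.0 (aged) and 44.6 (young) CPM in S-phase cells, against 24.4 and 24.3 CPM in the rest.

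For origin firing and the fork, 8 of 9 measured genes were higher, with medians of 2.37 in the aged and 2.27 in the young pool. MCM10, needed to start unwinding, had 41.0 CPM in S-phase cells against 3.49 CPM in the remaining cells of the aged pool, and 38.9 against 3.36 CPM in the young pool. CDC45 of the active helicase had 31.7 and 30.05 CPM in S-phase cells (aged, young), against 3.20 and 3.45 CPM in the remaining cells. GINS2 of its partner complex had 84.3 (aged) and 81.6 (young) CPM in S-phase cells, against 11.6 and 11.4 CPM in the rest. Claspin (CLSPN), which links the fork to checkpoint signalling, had 89.8 and 89.3 CPM in S-phase cells (aged, young), against 8.31 and 9.60 CPM in the remaining cells. TIPIN, the partner of TIMELESS, had 40.1 (aged) and 40.1 (young) CPM in S-phase cells, against 11.3 and 13.5 CPM in the rest. TOPBP1 was the measured member that stayed within 1.5-fold, with 50.9 (aged) and 51.2 (young) CPM in S-phase cells, against 36.8 and 38.3 CPM in the rest. The kinase subunit gene DBF4, whose product fires origins, had the smallest ratio of those higher, with 32.2 (aged) and 31.7 (young) CPM in S-phase cells, against 18.2 and 19.7 CPM in the rest.

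All 8 measured clamp loading genes were higher (medians 2.00 in the aged and 1.95 in the young pool). The loader subunit RFC4 had 75.1 (aged) and 76.6 (young) CPM in S-phase cells, against 17.8 and 18.4 CPM in the rest. ATAD5, which takes PCNA off DNA, had 42.8 (aged) and 40.5 (young) CPM in S-phase cells, against 8.16 and 9.14 CPM in the rest. PCLAF, a PCNA-binding protein, was the most abundant of those named here, with 331 (aged) and 329 (young) CPM in S-phase cells, against 105 and 105 CPM in the rest. The large subunit RFC1 moved least, with 97.7 (aged) and 102 (young) CPM in S-phase cells, against 64.0 and 63.8 CPM in the rest.

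Among polymerases and lagging strand enzymes 10 of 11 measured genes were higher and 1 was lower (medians 1.68 in the aged and 1.5005 in the young pool). The flap nuclease FEN1 had 87.6 CPM in S-phase cells against 13.3 CPM in the remaining cells of the aged pool, and 82.9 against 13.8 CPM in the young pool. LIG1, which seals Okazaki fragments, had 57.4 (aged) and 51.8 (young) CPM in S-phase cells, against 13.8 and 14.8 CPM in the rest. The primase subunit PRIM1 had 29.4 (aged) and 29.6 (young) CPM in S-phase cells, against 6.62 and 6.79 CPM in the rest. The catalytic polymerase delta subunit POLD1 had 29.2 (aged) and 24.0 (young) CPM in S-phase cells, against 7.08 and 6.89 CPM in the rest. POLD4, the small accessory subunit of the same enzyme, ran the other way with 39.2 CPM in S-phase cells against 66.7 CPM in the remaining cells of the aged pool, and 43.2 against 66.4 CPM in the young pool. POLD4 was 1.70-fold (1.54 to 1.89) and 1.54-fold (1.398 to 1.69) lower, and its level did not differ by 1.5-fold between pools within S-phase cells. In human cells the POLD4 protein is known to be degraded in S phase and after DNA damage, which concerns the protein and not these counts.

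Nucleotide supply had all 12 genes measured and 11 higher (medians 1.53 in the aged and 1.46 in the young pool). RRM2, the S-phase subunit of ribonucleotide reductase, had 138 CPM in S-phase cells against 29.5 CPM in the remaining cells of the aged pool, and 141 against 30.5 CPM in the young pool. Thymidylate synthase (TYMS) had 108 and 113 CPM in S-phase cells (aged, young), against 27.9 and 27.4 CPM in the remaining cells. The most abundant was DUT, which keeps uracil out of DNA, with 515 (aged) and 521 (young) CPM in S-phase cells, against 161 and 168 CPM in the rest. IMPDH2, of guanine nucleotide synthesis, stayed within 1.5-fold at 143 (aged) and 139 (young) CPM in S-phase cells, against 114 and 110.3 CPM in the rest. Nucleotide genes were also high in mitotic cells: the list summed to 1786 and 1749 CPM in S-phase cells and 1377 and 1401 CPM in the mitotic set, against 547 and 543 CPM in cells of neither. Licensing genes separated those sets more, with 672 and 620.3 CPM in S-phase cells and 326 and 328 CPM in mitotic cells.

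Chromatin assembly genes were higher in 8 of 8 measured cases (medians 2.08 in the aged and 2.03 in the young pool). The histone chaperone gene ASF1B had 33.5 (aged) and 35.9 (young) CPM in S-phase cells, against 5.36 and 5.31 CPM in the rest. CHAF1A of chromatin assembly factor 1 had 56.8 (aged) and 58.1 (young) CPM in S-phase cells, against 10.7 and 10.3 CPM in the rest. UHRF1, which brings DNMT1 to newly copied methylated DNA, had 50.1 (aged) and 44.7 (young) CPM in S-phase cells, against 7.88 and 7.65 CPM in the rest. DNMT1, the maintenance DNA methyltransferase, had 155 (aged) and 147 (young) CPM in S-phase cells, against 48.3 and 49.8 CPM in the rest. The helicase HELLS had 128 (aged) and 121 (young) CPM in S-phase cells, against 19.6 and 20.8 CPM in the rest. H2AFZ, a variant histone gene, was the most abundant and had the smallest ratio, with 881 (aged) and 765 (young) CPM in S-phase cells, against 393 and 389 CPM in the rest.

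**Figure D2:**
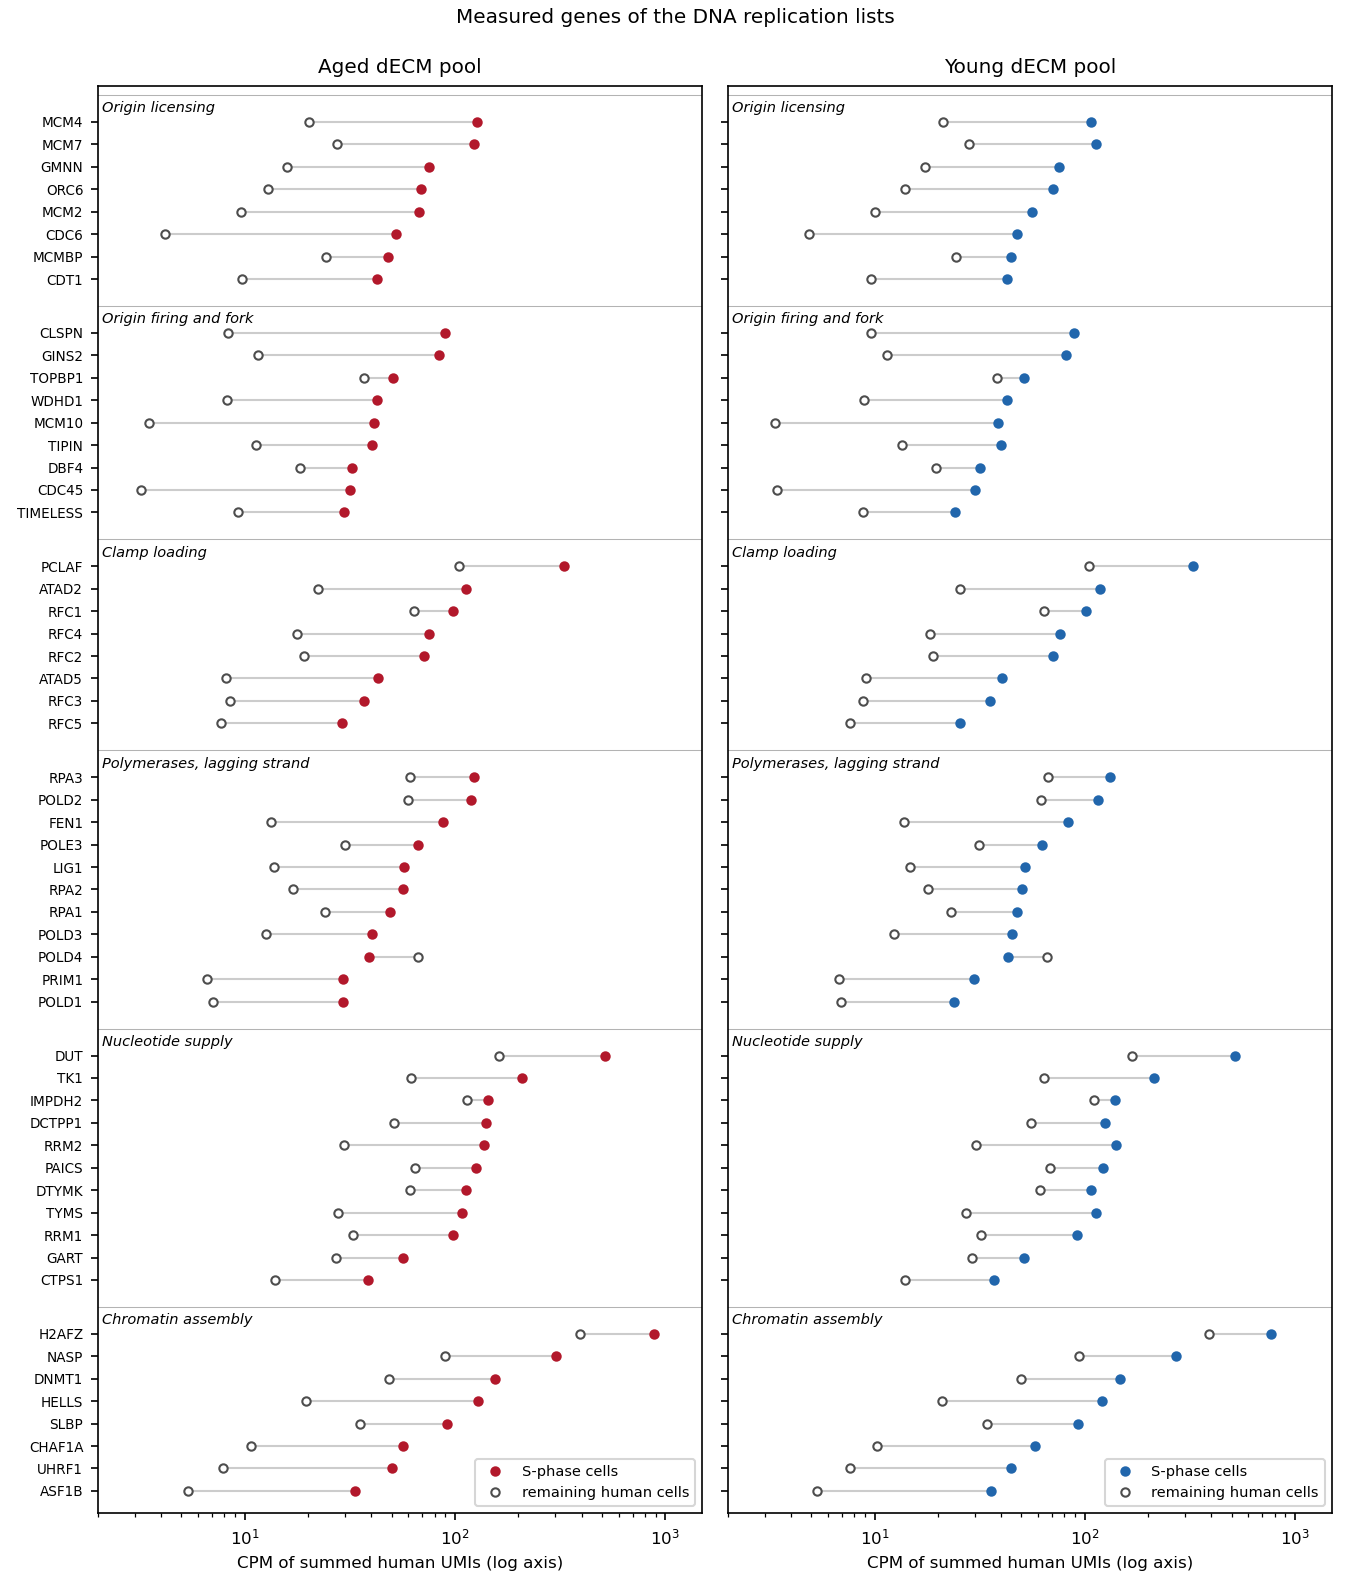
CPM on a log axis of measured genes of the 6 replication lists (1 of the 56 is not shown) in S-phase cells (filled) and remaining human cells (open), aged pool left and young pool right, with a grey line joining the pair. In each panel S-phase cells lie to the right for every gene shown but POLD4, and TOPBP1 and IMPDH2 have the shortest lines.

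Regulators of the G1 to S transition had 5 of 7 measured genes higher, beside 9.48% of all genes (medians 1.83 in the aged and 1.93 in the young pool). E2F1 had 22.2 CPM in S-phase cells against 2.14 CPM in the remaining cells of the aged pool, and 21.4 against 2.05 CPM in the young pool, or 10.4-fold (8.46 to 12.8) and 10.5-fold (8.52 to 12.9). Its partner TFDP1 had 77.9 (aged) and 79.8 (young) CPM in S-phase cells, against 36.1 and 35.8 CPM in the rest. RBL1, a pocket protein that binds repressor E2Fs, had 20.6 (aged) and 23.1 (young) CPM in S-phase cells, against 5.78 and 6.06 CPM in the rest. CDCA7, a target of MYC and E2F, had 33.9 (aged) and 27.6 (young) CPM in S-phase cells, against 4.31 and 5.02 CPM in the rest. The group was not uniform. E2F3 was past 1.5-fold in the aged pool alone, with 36.9 (aged) and 30.8 (young) CPM in S-phase cells, against 21.5 and 21.2 CPM in the rest. Cyclin A2 (CCNA2), which takes over from cyclin E during S phase, had 26.9 (aged) and 24.5 (young) CPM in S-phase cells, against 21.2 and 22.5 CPM in the rest, and 112 and 113 CPM in the mitotic set. The mitotic set is part of the rest and raises its CCNA2 level. The CCNA2 ratio thus understates the difference from cells in neither set. The cyclin E gene CCNE1 was below the minimum, at 13.7 (aged) and 13.9 (young) CPM in S-phase cells, against 1.55 and 1.56 CPM in the rest. Of 6 measured genes of G1 cyclins and growth control, 2 were higher, beside 9.48% of all genes. These were the cyclin D3 gene CCND3 and the kinase gene CDK4. CCND3 had 24.2 (aged) and 24.5 (young) CPM in S-phase cells, against 8.63 and 9.18 CPM in the rest. CDK4 had 112 (aged) and 107 (young) CPM in S-phase cells, against 49.3 and 50.4 CPM in the rest. Cyclin D1 and MYC, which act upstream of E2F, stayed within 1.5-fold. CCND1 had 218 (aged) and 212 (young) CPM in S-phase cells, against 184 and 184 CPM in the rest. MYC had 99.2 (aged) and 101 (young) CPM in S-phase cells, against 90.7 and 88.4 CPM in the rest.

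E2F-like letters were common in the promoters of these genes. Windows of 300 bases (250 before to 50 after the start, RefSeq, GRCh38.p14) were searched on both strands for TTTCCCGC, TTTGGCGC, TTTCGCGC or TTTGCCGC. They were present in 7 of 11 promoters of the G1 to S list, 5 of 12 of origin licensing, 5 of 13 of firing and fork, 5 of 14 of polymerases and 3 of 10 of chromatin assembly, but in 1 of 10 of nucleotide supply and 1 of 7 of clamp loading. Among genes with a window they were found in 14.4% of those higher in S-phase cells and 2.65% of those lower, beside 6.04% of all measured genes and 3.33% of all 27305 windows. The lists were chosen for their known roles, so the shares are a description. Other letters were common in the mitotic list: 28 of 31 of its promoters held the CHR-like TTTGAA or TTTAAA, beside 24.3% of all windows, 0 of 12 of the licensing promoters and 3 of 10 of both the nucleotide and the chromatin promoters. CCAAT was in 27 of 31 mitotic promoters, beside 35.7% of all windows, and also in 13 of 13 of the replication histones, 7 of 10 of chromatin assembly and 8 of 13 of firing and fork. A match is not a bound site, and a window without one says nothing of the factor. The 150 bases before the start are printed 5′ to 3′ for 5 genes with E2F-like matches in capitals. A match on the other strand reads as its reverse complement. Of these genes MCM6 and PCNA were used to choose the cells and are high by that choice. DTL, GINS2 and E2F1 were not used and were higher in S-phase cells. CCNB1, used to set mitotic cells aside, is printed with its CHR-like match in capitals.
MCM6 (chr2:135876444-135876593, minus strand): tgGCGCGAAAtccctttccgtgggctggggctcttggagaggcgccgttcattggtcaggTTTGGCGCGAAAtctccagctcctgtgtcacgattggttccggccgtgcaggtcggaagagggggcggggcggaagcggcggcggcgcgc
PCNA (chr20:5126623-5126772, minus strand): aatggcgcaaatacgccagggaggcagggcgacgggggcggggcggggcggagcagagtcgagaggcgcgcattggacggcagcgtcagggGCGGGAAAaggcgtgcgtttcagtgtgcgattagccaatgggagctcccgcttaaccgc
DTL (chr1:212035598-212035747, plus strand): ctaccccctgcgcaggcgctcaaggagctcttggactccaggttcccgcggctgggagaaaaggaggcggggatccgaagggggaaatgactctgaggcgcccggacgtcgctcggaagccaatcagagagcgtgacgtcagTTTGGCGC
GINS2 (chr16:85688955-85689104, minus strand): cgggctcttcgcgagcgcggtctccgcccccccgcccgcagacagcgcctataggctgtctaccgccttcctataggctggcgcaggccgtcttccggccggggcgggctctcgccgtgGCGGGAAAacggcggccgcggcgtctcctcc
E2F1 (chr20:33686386-33686535, minus strand): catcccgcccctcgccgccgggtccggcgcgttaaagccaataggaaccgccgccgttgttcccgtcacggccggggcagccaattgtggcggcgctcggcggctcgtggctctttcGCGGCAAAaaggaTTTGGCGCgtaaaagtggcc
CCNB1 (chr5:69167000-69167149, plus strand): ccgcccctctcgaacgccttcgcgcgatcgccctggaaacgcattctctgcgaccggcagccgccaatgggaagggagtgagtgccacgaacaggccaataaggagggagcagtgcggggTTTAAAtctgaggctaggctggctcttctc
In MCM6, overlapping matches lie 90 and 86 bases before the start and another at 148. DTL has its match 8 bases before the start, GINS2 at 31, PCNA at 59, and E2F1 has them at 33 and 20.

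Fork protection and repair genes had 13 of 14 measured members higher, beside 9.48% of all genes (medians 1.68 in the aged and 1.63 in the young pool). EXO1, a nuclease of mismatch repair and end resection, had 22.5 CPM in S-phase cells against 1.98 CPM in the remaining cells of the aged pool, and 22.2 against 2.14 CPM in the young pool, or 11.3-fold (9.21 to 14.0) and 10.4-fold (8.47 to 12.7). BRCA1, which protects stalled forks and acts in recombination, had 49.3 (aged) and 45.9 (young) CPM in S-phase cells, against 7.61 and 8.10 CPM in the rest. ATR, the kinase that senses stalled forks, was past 1.5-fold in the aged pool alone, with 37.4 (aged) and 33.0 (young) CPM in S-phase cells, against 23.0 and 24.9 CPM in the rest. The repair medians lie close to those of the polymerases.

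Replication histone genes mostly lack the poly(A) tail that the library captures, so their counts are a small part of the whole. Of 14 genes 7 were measured, 6 higher and 1 lower, beside 9.48% and 4.92% of all genes. The medians were 1.57 in the aged and 1.56 in the young pool. HIST1H4C (histone H4) had 725 CPM in S-phase cells against 179 CPM in the remaining cells of the aged pool, and 749.9 against 202 CPM in the young pool. HIST1H1B, a linker histone, had 34.0 (aged) and 50.3 (young) CPM in S-phase cells, against 5.63 and 7.46 CPM in the rest. HIST1H2AC was lower, at 18.8 (aged) and 21.6 (young) CPM in S-phase cells, against 35.7 and 38.0 CPM in the rest. The counting does not say how reads shared by near-identical histone copies were split, so values of single copies are uncertain.

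Within the S-phase cells, G2/M transcripts gave an order, while position in the cycle itself was not measured. The 391 cells were ordered by their share of UMIs on a list of 35 G2/M genes and cut into 3 groups of 131, 130 and 130. The 4 genes that set mitotic cells aside summed to 59.8, 178 and 545 CPM in these groups over both pools. The order is therefore not independent of the choice, which removed the cells highest for those 4 genes. The histone list summed to 208, 654 and 2332 CPM in the lowest, middle and highest group over both pools. HIST1H4C had 105, 408 and 1473 CPM, and HIST1H1B 0, 18.3 and 93.4 CPM. In the lowest group the histone sum was 222 CPM in the aged and 197 CPM in the young pool, below the 371 and 433 CPM of the remaining cells. For this group the name S-phase therefore rests on the replication genes and not on histone transcripts. Its summed licensing genes were high all the same, at 563 and 470 CPM (aged, young), where the remaining cells had 169 and 174 CPM. CDC6 stood at 47.5 and 30.6 CPM and E2F1 at 18.5 and 20.1 CPM (aged, young). The remaining cells had 4.17 and 4.86 CPM of CDC6 and 2.14 and 2.05 CPM of E2F1. Not every replication gene followed, as RRM2 stood at 37.4 and 26.7 CPM, close to its level in the remaining cells. CCNA2 (4.24 and 2.55 CPM), MKI67 (16.6 and 17.2 CPM) and CDK1 (11.6 and 8.60 CPM) were below the remaining cells, mitotic set included.

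The replication lists changed less over the same 3 groups. Licensing genes had 512, 691 and 696 CPM and were level between the middle and highest group. FAM111B had 70.8, 140.3 and 126 CPM, CCNE2 14.3, 32.0 and 28.7 CPM and MCM10 23.4, 51.3 and 41.0 CPM, summed over both pools. Of these MCM10 was highest in the middle group in each pool, while in the aged pool CCNE2 (30.7 and 31.1 CPM) and FAM111B (142 and 140.4 CPM) were level between the middle and highest group. RRM2 (31.6, 133 and 219 CPM), TYMS (51.6, 107 and 153 CPM) and CCNA2 (3.31, 20.2 and 46.1 CPM) kept increasing. CCND1 ran the other way (247, 219 and 189 CPM). Median depth also increased, with 40065, 46947 and 54910 human UMIs, and its part was not tested.

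**Figure D3:**
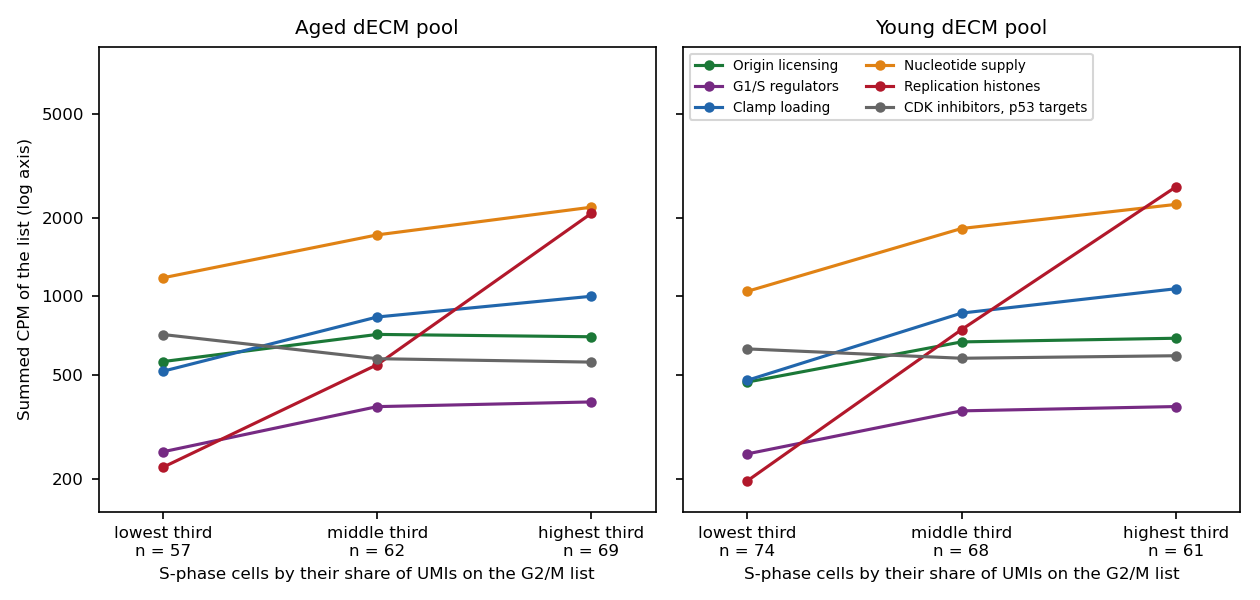
Summed CPM (log axis) of 6 gene lists in S-phase cells of the aged pool (left) and young pool (right), ordered into 3 groups by the share of UMIs on the G2/M list. The replication histones climb most, reaching 2079 CPM in the aged and 2622 CPM in the young pool, while licensing and G1/S lists level off after the middle group.

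By their medians against the remaining cells, mitotic set included, mitotic genes leaned little either way. Of 35 G2/M genes 25 were measured, 2 higher and 6 lower, beside 9.48% and 4.92% of all genes. The medians were -0.003 in the aged and -0.16 in the young pool. The sign of the median depends on the setting, reaching 1.53 and 1.55 when mitotic cells were taken out of the remaining cells. MKI67, which encodes Ki-67, had 132 and 126 CPM in S-phase cells (aged, young), against 105 and 105 CPM in the remaining cells, and 529 and 488 CPM in the mitotic set. CDK1 was higher, with 49.8 (aged) and 55.1 (young) CPM in S-phase cells, against 23.5 and 24.7 CPM in the rest. The spindle gene HMMR was lower, with 22.1 (aged) and 20.5 (young) CPM in S-phase cells, against 42.7 and 42.9 CPM in the rest. CENPA, the centromeric histone, was lower too, with 11.6 (aged) and 10.4 (young) CPM in S-phase cells, against 21.5 and 20.9 CPM in the rest. The cells highest for CENPF, CCNB1, TOP2A and UBE2C were removed before the choice but stayed in the remaining cells. The lower calls of mitotic genes are therefore not independent of the choice. Summed over the G2/M list, S-phase cells had 2055 and 1934 CPM (aged, young), against 821 and 761 CPM in cells of neither set. The mitotic set had 8687 and 8411 CPM.

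Of 9 measured CDK inhibitor and p53 target genes none was higher and 2 were lower, beside 4.92% of all genes (medians -0.36 in the aged and -0.38 in the young pool). CDKN1A (p21), the inhibitor that is destroyed on PCNA-loaded DNA as a protein, had 68.9 CPM in S-phase cells against 131 CPM in the remaining cells of the aged pool, and 76.0 against 131 CPM in the young pool, or 1.90-fold (1.76 to 2.05) and 1.72-fold (1.61 to 1.85) lower. GADD45A, a stress gene, had 78.6 (aged) and 87.1 (young) CPM in S-phase cells, against 144 and 147 CPM in the rest. The p21 transcript was also low in the mitotic set, at 72.7 and 60.5 CPM.

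The MYC and ribosome biogenesis list had 8 of 18 measured genes higher, beside 9.48% of all genes, and none lower (medians 0.80 in the aged and 0.54 in the young pool). The nucleolar gene NOLC1 had 106 (aged) and 92.5 (young) CPM in S-phase cells, against 41.0 and 39.2 CPM in the rest. The snoRNP core gene NOP56 had 131 (aged) and 129 (young) CPM in S-phase cells, against 59.0 and 62.1 CPM in the rest. Spermidine synthase (SRM) had 142 (aged) and 139 (young) CPM in S-phase cells, against 66.4 and 71.4 CPM in the rest. ODC1, the first enzyme of polyamine synthesis, was at the other end of the list and not past 1.5-fold in both pools, with 194 (aged) and 179 (young) CPM in S-phase cells, against 277 and 307 CPM in the rest. Oxidative phosphorylation had 1 of 24 measured genes higher, a smaller share than over all genes, ATP5MC1 of ATP synthase (461 (aged) and 442 (young) CPM in S-phase cells, against 235 and 246 CPM in the rest), with medians of 0.30 and 0.24 (aged, young).

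The lower side was led by invasive proteases. In the invasion and matrix list 10 of 12 measured genes were lower, beside 4.92% of all genes, and none higher, with medians of -1.47 in the aged and -1.42 in the young pool. The collagenase MMP1 had 2.46 CPM in S-phase cells against 70.7 CPM in the remaining cells of the aged pool, and 6.08 against 81.5 CPM in the young pool, or 28.7-fold (19.5 to 43.9) and 13.4-fold (10.5 to 17.3) lower. The gelatinase MMP9 had 6.92 and 14.1 CPM in S-phase cells (aged, young), against 105 and 119.8 CPM in the remaining cells. The stromelysin MMP10 had 0.664 and 6.08 CPM in S-phase cells (aged, young), against 39.7 and 37.5 CPM in the remaining cells. In S-phase cells these values rest on 26 and 67 UMIs (MMP1), 73 and 155 UMIs (MMP9) and 7 and 67 UMIs (MMP10). The 3 genes were measured through the remaining cells, and the part of single cells was not tested. All 3 were likewise low in the mitotic set (aged, young), with MMP1 at 0.794 and 1.71 CPM, MMP9 at 6.53 and 13.8 CPM and MMP10 at 2.65 and 1.86 CPM, so the low level is shared by both cycling sets. The 2 genes not past 1.5-fold in both pools belong to the plasminogen system. The activator gene PLAT had 36.1 (aged) and 47.6 (young) CPM in S-phase cells, against 50.4 and 64.3 CPM in the rest. The urokinase receptor gene PLAUR had 217 (aged) and 194 (young) CPM in S-phase cells, against 319.6 and 331 CPM in the rest.

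Hypoxia and glycolysis genes were lower in 13 of 19 measured cases, beside 4.92% of all genes, and higher in none (medians -1.31 in the aged and -1.11 in the young pool). Adrenomedullin (ADM) had 16.7 CPM in S-phase cells against 106 CPM in the remaining cells of the aged pool, and 18.3 against 102 CPM in the young pool. NDRG1, a classic hypoxia-induced gene, had 102 and 110.0 CPM in S-phase cells (aged, young), against 498 and 467 CPM in the remaining cells. The oxygen sensor EGLN3 had 8.34 (aged) and 7.08 (young) CPM in S-phase cells, against 28.3 and 31.2 CPM in the rest. At the other end of the list, 3 genes of glycolytic enzymes stayed within 1.5-fold. ENO1 had 1049 (aged) and 1041 (young) CPM in S-phase cells, against 1008 and 1024 CPM in the rest. PGK1 had 249 (aged) and 258 (young) CPM in S-phase cells, against 329 and 331 CPM in the rest. LDHA, which makes lactate, had 684 (aged) and 699 (young) CPM in S-phase cells, against 956 and 990.2 CPM in the rest.  The list summed to 3364 and 3419.9 CPM in S-phase cells and 4716 and 4407 CPM in the mitotic set, against 5614 and 5714 CPM in cells of neither. ANGPTL4, a secreted lipase inhibitor that hypoxia induces, had 13.0 (aged) and 12.4 (young) CPM in S-phase cells, against 85.2 and 87.7 CPM in the rest. IGFBP3, which binds insulin-like growth factors, had 63.5 (aged) and 68.4 (young) CPM in S-phase cells, against 381 and 405 CPM in the rest.

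Basal identity split in 2 directions. Of 15 measured genes 2 were higher and 7 lower, beside 9.48% and 4.92% of all genes (medians -0.55 in the aged and -0.73 in the young pool). The basal layer keratins were the higher pair, KRT5 as given above and KRT14 with 1575 (aged) and 1724 (young) CPM in S-phase cells, against 833 and 924 CPM in the rest. At the low end of the list, the laminin chain gene LAMA3 had 23.4 and 26.8 CPM in S-phase cells (aged, young), against 97.96 and 134 CPM in the remaining cells. COL17A1 of the hemidesmosome had 12.2 (aged) and 11.7 (young) CPM in S-phase cells, against 40.8 and 50.5 CPM in the rest. In the mitotic set (aged, young) KRT5 stood at 895 and 953 CPM, between S-phase and remaining cells. LAMA3 stood there at 34.8 and 23.3 CPM, between S-phase and remaining cells in the aged pool and below both in the young pool. Of 13 measured luminal genes none was higher and 1 lower, close to the 4.92% of all genes, with medians of -0.13 and -0.13 (aged, young). That gene, LCN2, had 27.7 (aged) and 61.3 (young) CPM in S-phase cells, against 67.9 and 92.7 CPM in the rest. None of 4 measured squamous differentiation genes stood apart, although the late cornified envelope gene LCE3D, outside that list, had 1.14 (aged) and 9.17 (young) CPM in S-phase cells, against 32.4 and 41.1 CPM in the rest.

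Stress, alarm and receptor genes gave smaller groups. Their counts stand beside 9.48% of all genes higher and 4.92% lower. In the alarmin list 4 of 14 measured genes were lower and 1 higher. S100A7 (psoriasin) had 29.1 (aged) and 77.9 (young) CPM in S-phase cells, against 171 and 328 CPM in the rest. S100A8, a subunit of calprotectin, had 54.1 (aged) and 63.7 (young) CPM in S-phase cells, against 117 and 184 CPM in the rest. The higher gene was the chemokine gene CCL20, with 127 (aged) and 125 (young) CPM in S-phase cells, against 65.2 and 75.8 CPM in the rest. Of 18 immediate early and heat shock genes 4 were lower, led by the stress-inducible chaperone HSPA6 with 9.86 (aged) and 11.4 (young) CPM in S-phase cells, against 53.01 and 91.5 CPM in the rest. FOSB lay at the other end of the list with 875 (aged) and 772 (young) CPM in S-phase cells, against 752 and 671 CPM in the rest. The YAP and wound list had 3 of 6 lower. CCN2, a common readout of YAP, had 30.1 (aged) and 30.7 (young) CPM in S-phase cells, against 59.6 and 60.8 CPM in the rest. CAV1, of caveolae, had 66.5 (aged) and 71.7 (young) CPM in S-phase cells, against 130.1 and 125 CPM in the rest. Of 9 receptor and Notch genes 2 were lower. MET, the receptor of hepatocyte growth factor, had 15.5 (aged) and 16.0 (young) CPM in S-phase cells, against 39.4 and 41.4 CPM in the rest. The Notch ligand JAG1 had 39.3 (aged) and 38.4 (young) CPM in S-phase cells, against 94.9 and 96.8 CPM in the rest. AKAP12, a kinase anchoring scaffold gene outside the lists, had 1.52 and 2.72 CPM in S-phase cells (aged, young), against 36.7 and 27.7 CPM in the remaining cells.

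**Figure D4:**
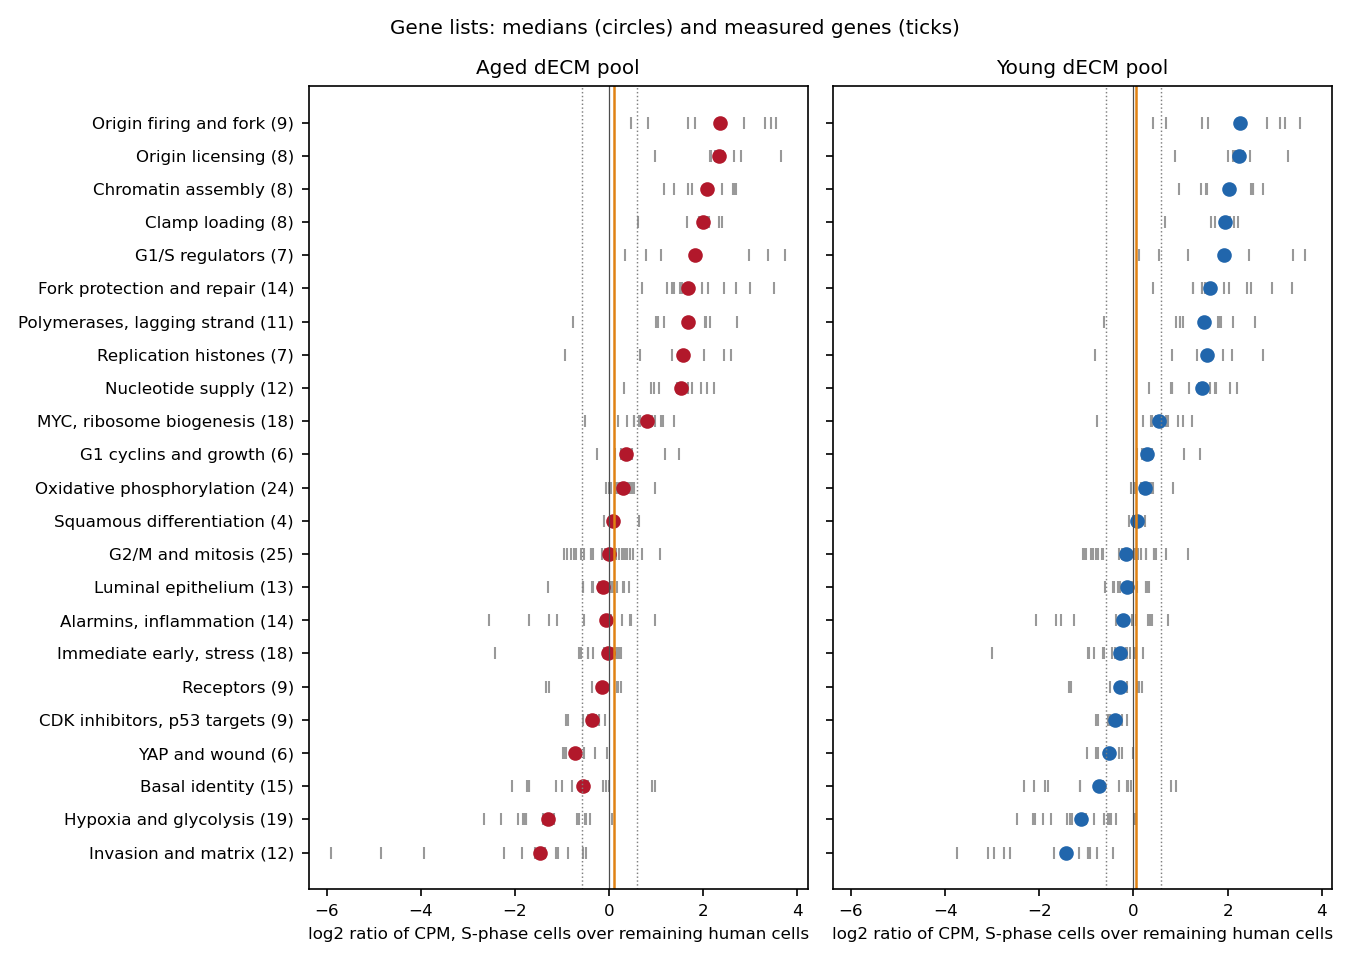
Log2 ratio of CPM, S-phase over remaining cells, for 23 gene lists in the aged pool (left) and young pool (right). Circles are list medians, grey ticks single measured genes (their number in brackets), dotted lines 1.5-fold and the orange line the median of all measured genes; replication list medians lie between 1.46 and 2.37, and those of the invasion and hypoxia lists between -1.47 and -1.11.

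Compared within ranges of depth, the summed licensing, invasion and hypoxia lists kept their directions. Over all depths the log2 ratio of the sums (aged, young) was 1.99 and 1.83 for licensing. It was -1.16 and -1.19 for invasion, and -0.70 and -0.68 for hypoxia. The medians given above are taken over genes and are another measure. For licensing the log2 ratio was 2.55 and 1.87 (aged, young) below 20000 gene UMIs, 2.46 and 2.2996 at 20000 to 50000, and 1.64 and 1.505 above. For invasion and matrix it was -1.03 and -1.76, -1.23 and -1.71, and -0.95 and -0.88. For hypoxia and glycolysis it was -0.49 and -0.67, -0.77 and -0.78, and -0.59 and -0.54. The shallowest range held only 17 and 20 S-phase cells. Of 8 lists compared this way 2 changed sign. The G2/M list had 1.38 and -0.10, 0.39 and 0.50, and -0.29 and -0.47. Basal identity had 0.11 and -0.12, -0.16 and -0.16, and -0.08 and -0.11.

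Between the pools, S-phase cells were close to each other. Of 5713 genes measured within them (20 CPM or more in one pool and 100 UMIs over both), 4 (0.0700%) were higher and 17 (0.298%) lower in the aged pool by 1.5-fold or more. No gene of the 6 replication lists was among these 21. Their medians, aged over young, were 0.11 for licensing, 0.02 for firing and fork, 0.02 for clamp loading, 0.05 for polymerases, 0.06 for nucleotide supply and 0.08 for chromatin assembly, beside 0.04 for all measured genes. The replication histones stood lower in the aged pool, with a median of -0.36 both in S-phase cells and in the remaining cells and no list member past 1.5-fold. HIST1H2AH, outside the list and chosen after its values were seen, was past it at 11.8 CPM in the aged and 20.4 CPM in the young pool.

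The genes lower in the aged pool included secreted and keratinocyte alarm genes, and several leaned on few cells. IL24, a cytokine of the IL-10 family, had 3.70 CPM in S-phase cells of the aged pool against 20.9 CPM in those of the young pool, with UMIs in 9 and 8 cells and 53.8% and 50.4% of them in a single cell. IGFL1, of the IGF-like family, had 15.6 CPM in S-phase cells of the aged pool against 77.8 CPM in those of the young pool, in 26 cells of each pool, and 48.9 against 100.5 CPM in the remaining cells. S100A7 had 29.1 CPM in S-phase cells of the aged pool against 77.9 CPM in those of the young pool, with 47.9% and 48.0% of its UMIs in 1 cell of each pool. Without the top cell over both pools these 3 genes stood at 3.70 against 10.3, 15.6 against 48.3 and 29.1 against 40.5 CPM. The iron-binding lipocalin LCN2 had 27.7 CPM in S-phase cells of the aged pool against 61.3 CPM in those of the young pool, found in 87 and 105 cells, and 27.7 against 51.7 CPM without its top cell. The chitinase-like CHI3L1 had 43.6 CPM in S-phase cells of the aged pool against 94.0 CPM in those of the young pool. CALML3 (8.53 against 20.4 CPM), APOC1 (16.4 against 32.5 CPM) and PI15 (13.2 against 25.3 CPM) completed the 8 lowest. A single young cell held 53.9% of the APOC1 UMIs of its pool, and without it APOC1 had 16.4 CPM in the aged and 14.98 CPM in the young pool, so that its direction turned. The most abundant of the 17, chosen after its values were seen, was the elastase inhibitor gene PI3, with 2169.6 CPM in the aged against 3630.2 CPM in the young pool.

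On the higher side the nuclear receptor NR4A2 had 155 CPM in S-phase cells of the aged pool against 102 CPM in those of the young pool (1.52-fold, 1.41 to 1.64), in 143 and 138 cells. The neuropeptide Y receptor NPY1R had 28.6 CPM in S-phase cells of the aged pool against 17.9 CPM in those of the young pool, and STAC2 20.7 CPM in S-phase cells of the aged pool against 10.98 CPM in those of the young pool. The mammaglobin gene SCGB2A2 had 92.3 CPM in S-phase cells of the aged pool against 35.9 CPM in those of the young pool, but 67.5% of its aged UMIs lay in 1 cell, and without it the values were 30.1 CPM in the aged and 35.9 CPM in the young pool. With each gene's top cell left out, 2 genes were higher and 7 lower, and 6 of these were among the 21. NR4A2 then had 148 CPM in the aged against 102 CPM in the young pool, within 1.5-fold. STAC2 had 19.1 CPM in the aged against 10.98 CPM in the young pool, below the minimum. Of the 21 genes 18 differed in the same direction in the remaining cells, 4 of them by 1.5-fold or more. S100A7 and NR4A2 also differed between sets with 1 hashing tag within a pool. S100A7 ranged from 12.0 to 147 CPM over 3 aged sets with at least 15 S-phase cells, and was 406 and 22.1 CPM in 2 young ones. Its spread cannot be told apart from the single cell of each pool that held 47.9% and 48.0% of its UMIs. NR4A2, found in most S-phase cells, ranged from 88.9 to 153 CPM over the aged sets and was 136 and 91.5 CPM in the young ones. The study describes 3 samples as sequenced and does not tie them to the pools. The calls between pools cannot be told apart from differences between the tumours that each pool holds.

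**Figure D5:**
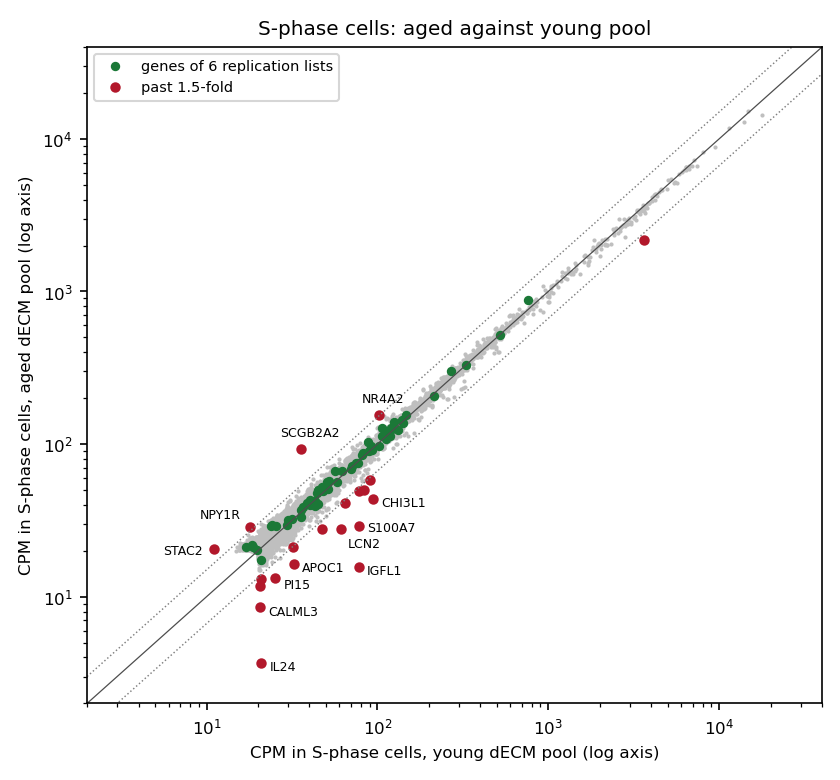
CPM of 5713 genes in S-phase cells of the aged pool (vertical, log axis) against the young pool (horizontal, log axis). Red points are the 21 genes past 1.5-fold (dotted lines) and green points the replication genes, which all lie between the dotted lines.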

How the data were processed

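Transcripts were counted in 2 gene expression libraries, the aged and the young pool, each with an antibody library. The deposited values are whole-number counts of UMIs per gene or antibody and barcode, made with Cell Ranger 6.0.0 against GRCh38 and mm10, per the submitters' processing notes; no normalization had been applied. Barcodes were filtered, split by species and ranked as the report states, with Python 3.11.15. UMIs were then summed over the cells of each set and pool and scaled to CPM of human UMIs. S-phase and remaining cells held 10548731 and 76248397 human UMIs in the aged pool, and 11015548 and 76769047 in the young pool. Ratios carry exact conditional binomial intervals and shares Clopper-Pearson intervals, both at 95% and for counting error only. No test was run because each group has 1 library. Doublets were scored with Scrublet (scanpy 1.11.5) and removed only in an alternative. TMM factors came from edgeR 4.0.16 and median-of-ratios factors from DESeq2 1.42.0 (R 4.3.3), for scaling alone. The calling steps were tested on simulated summed counts with known folds. These had no spread between cells, so the test says nothing of calls that lean on few cells. Genes named are the 12 highest and 12 lowest against the remaining cells, the measured genes of the replication and G1 to S lists, up to 3 at each end of other lists, up to 8 at each end between pools, MKI67, CDKN1A, CCND1 and CCNE2; others are marked. A few genes that this rule names are not reported here. The members and lists were chosen with earlier results of these data known. The alternatives comprised 25 settings. Promoters came from RefSeq (GRCh38.p14).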

Additional observations from a re-analysis of the deposited data

How the results depend on the processing

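Results were recomputed under up to 25 settings (those that could change the value), 3 of them (thinning before the choice and leaving out a tag set of either pool) added after seeing the data. Among list medians against the remaining cells, the G2/M median changed sign in 13 of 24 settings in the aged pool and 5 of 24 in the young pool, and the alarmin median in 3 of 24 in the aged pool. Among medians of aged over young, signs changed for invasion in 8 of 25, clamp loading in 5, polymerases and alarmins in 3 each, hypoxia and basal identity in 2 each and repair and oxidative phosphorylation in 1 each, and for CDK inhibitors in 3 and firing and fork in 2 of 24. Keeping the top 5% gave S-phase shares of 5.0047% (aged) and 4.03% (young), a ratio of 1.24, and 28 genes higher and 47 lower in the aged pool. Keeping the top 20% gave 17.5% and 18.5%, with 7 genes lower. With cells of 1 hashing tag alone the ratio was 0.735, with 47 genes higher and 40 lower. In the comparison with the remaining cells, TMM scaling gave 424 genes lower, and taking mitotic cells out of the remaining cells gave 835 higher. A minimum of 5 CPM gave 966 higher and 520 lower, 100 CPM gave 111 and 76, no minimum gave 1836 and 1167, and a threshold of 2-fold gave 187 and 88. Between the pools, the same 4 settings gave 77 higher and 68 lower, 1 and 1, 1685 and 1529, and 1 and 6. A species purity of 0.98 gave 14 and 27, and leaving out each gene's top cell gave 2 and 7. Genes higher in the aged pool numbered 7 without MCM5 or with the choice made on 40 other replication genes, 2 without MCM6, with TMM or with median-of-ratios scaling, 25 with cells weighted equally, and 9 without tag H-HTO-2 of the aged pool. Without tag H-HTO-4 of the young pool there were 11 higher and 26 lower. The cause of each change was not tested. No paired analysis was possible because each group has 1 library and no test was run. The comparison between pools rests on 10548731 and 11015548 human UMIs (aged, young) of the S-phase cells.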
